A study of Homo sapiens with 6 samples.

Results

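Levels of 8 genes that encode enzymes of asparagine, glutamine and proline metabolism were compared between thyroid cancer cells given an siRNA against GDF15 (siGDF15, 3 libraries) and their controls (NC, 3 libraries). The 8 genes, ASNS, GLUL, GLUD1, GOT1, GOT2, GPT2, ALDH18A1 and PYCR1, are among the 34738 genes listed in the deposited table and were chosen by function with the fold changes of these same libraries known. Their differences between siGDF15 and NC are therefore given as a description, with no p-value for any of them. All 8 passed the filter on low expression (a mean of at least 1 FPKM) that left 11867 genes for the fit across all genes.

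The labels name KHM-5M, a line from an undifferentiated thyroid carcinoma, for all 6 libraries, whereas a figure legend of the study names TPC-1 for this experiment. GDF15, a secreted stress cytokine of the TGF-beta family, was targeted with 1 siRNA sequence delivered by lipofection. The control is called a blank control in the deposited design and negative control cells in the methods, which list a negative control siRNA. Whether the sequenced NC cells received it is not stated, and if they did not, transfection and loss of GDF15 cannot be told apart. No time after transfection is given in the sources used here. The methods call the 3 samples of a group biological replicates, and the labels name no separate cultures. p-values therefore measure the spread between these libraries. FPKM divides a gene's fragments by its length and by the size of the library, so levels of different genes can be compared on it. Fold changes were computed with edgeR from expected counts after TMM normalization, which scales the libraries so that the typical gene does not move. The median log2 fold change of all tested genes was 0.00 in that fit and -0.10 when counts were scaled by their total alone. An FPKM ratio therefore lies lower than the edgeR fold change of the same gene by about that shift.

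The libraries held between 51738814 and 68025163 expected counts, with the lowest total in siGDF15 replicate 2, and each of the 8 genes had at least 1223 counts in every library. GDF15 itself was expressed at 22.4, 19.3 and 23.15 FPKM in NC and at 10.8, 10.5 and 10.7 FPKM in siGDF15, so the targeted gene was lower in every library labelled siGDF15. Of 12 thyroid markers, 3 reached a mean of 1 FPKM. PAX8, a transcription factor of the thyroid lineage, was at 59.1 ± 5.33 FPKM (SD, n = 3) in NC and FOXE1 at 2.76 ± 0.208 FPKM (SD, n = 3), whereas the thyroglobulin gene TG and the iodide transporter gene SLC5A5 were below 0.25 FPKM in every library. The summed level of the 6 epithelial markers lay between 108 and 160 FPKM in NC and between 136 and 147 FPKM in siGDF15. Of the 6 immune markers only CD68 reached 1 FPKM, and none of the 5 endothelial markers did. Other sums differed between the groups. The 8 mesenchymal markers summed to between 775 and 836 FPKM in NC and to between 847 and 890 FPKM in siGDF15, and the thyroid markers to between 61.5 and 72.0 FPKM and between 83.1 and 86.3 FPKM. Single genes carried both sums. FN1, the fibronectin gene, rose (log2 fold change 0.47, edgeR adjusted p = 7.95e-04), whereas VIM and CDH2 had lower FPKM in every siGDF15 library and did not pass the test. PAX8 rose (log2 fold change 0.53, edgeR adjusted p = 1.22e-04) and HHEX, another thyroid transcription factor, fell (log2 fold change -0.56, edgeR adjusted p = 0.00138). Mitochondrial genes held between 6.39 and 6.78% of the counts in NC and between 8.53 and 9.17% among siGDF15 libraries. The part of these differences in the results was not tested.

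Cells build several amino acids from glutamate, the product of glutamine breakdown. Glutamate passes its amino group to keto acids in transaminase reactions, is reduced to proline through pyrroline-5-carboxylate, and is recharged with ammonia to glutamine, whose amide group is then spent in making asparagine and nucleotides. In proliferating cells several of these genes are switched on by ATF4, a transcription factor that responds to amino acid shortage and to stress of the endoplasmic reticulum.

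ASNS, the gene of asparagine synthetase, which moves the amide group of glutamine onto aspartate, showed the largest difference among the 8. ASNS (ENSG00000070669, minus strand of chromosome 7 of GRCh38 from 97851677 to 97872408) stood at 31.1, 33.3 and 30.5 FPKM in NC replicates 1 to 3 and at 4.82, 4.31 and 4.37 FPKM in siGDF15 replicates 1 to 3. The highest siGDF15 library thus lay far under the lowest NC library. The mean level in NC was 7.03 times that in siGDF15, and the log2 fold change was -2.70 (standard error, SE, 0.059). By fold change ASNS ranked 7 from the low end of the 11867 tested genes. In NC it was the third most abundant of the 8 and stood above 90.4% of the tested genes, and in siGDF15 it was the least abundant and stood above 43.2% of them. In bulk RNA, a fall in every cell and a loss in some of the cells cannot be told apart. With any library left out the log2 fold change of ASNS lay between -2.75 and -2.67.

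Other RNA from the same place could share reads with ASNS. ENSG00000284707, listed by its identifier as a lncRNA in the deposited table, shares 20721 bases with ASNS on the same strand, and its levels were 0.886, 0.922 and 0.677 FPKM in NC and 0.210, 0.518 and 0.359 FPKM in siGDF15. It was thus also lower in every siGDF15 library, at a level far below that of ASNS. A short pseudogene on the opposite strand, ENSG00000226744, was at no more than 1.20 FPKM in any library. The part of both in the ASNS values was not tested.

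The promoter of ASNS is known for an element of the amino acid response, to which ATF4 binds together with C/EBP factors. Promoter windows of 300 bases, from 250 before to 50 after a transcription start, were read from RefSeq (GRCh38.p14) for 6 of the 8 genes, in 8 windows, and searched on both strands for the core letters TGATGNAA of that element and for CACGTG, the E-box recognized by MYC and related factors. TGATGNAA was found in 2 of the 8 windows, 1 each of ASNS and GOT1, and in 3.62% of all 35116 windows. CACGTG was found in 1 window, that of ALDH18A1, and in 7.26% of all windows. The windows of ASNS (chr7:97872359-97872658), GOT1 (chr10:99430575-99430874) and ALDH18A1 (chr10:95656662-95656961), all on the minus strand, are shown 5′ to 3′ because they hold a match, which is in capitals.
ASNS: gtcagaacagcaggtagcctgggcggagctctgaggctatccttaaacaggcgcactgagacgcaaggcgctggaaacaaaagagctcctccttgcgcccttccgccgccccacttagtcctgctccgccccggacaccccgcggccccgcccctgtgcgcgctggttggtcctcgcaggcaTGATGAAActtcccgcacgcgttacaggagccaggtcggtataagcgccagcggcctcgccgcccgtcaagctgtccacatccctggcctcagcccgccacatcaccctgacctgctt
GOT1: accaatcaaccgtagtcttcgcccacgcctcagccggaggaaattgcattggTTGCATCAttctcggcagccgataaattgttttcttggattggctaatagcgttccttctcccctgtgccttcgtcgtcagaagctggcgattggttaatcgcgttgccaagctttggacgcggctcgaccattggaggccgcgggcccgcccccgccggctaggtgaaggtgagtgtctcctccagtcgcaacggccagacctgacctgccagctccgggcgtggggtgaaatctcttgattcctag
ALDH18A1: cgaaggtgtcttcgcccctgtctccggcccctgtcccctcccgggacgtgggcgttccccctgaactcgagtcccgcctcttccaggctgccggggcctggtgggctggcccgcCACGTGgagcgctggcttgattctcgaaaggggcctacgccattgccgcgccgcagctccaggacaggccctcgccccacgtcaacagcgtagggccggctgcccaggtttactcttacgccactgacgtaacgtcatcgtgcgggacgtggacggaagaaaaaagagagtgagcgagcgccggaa
In ASNS the match TGATGAAA lay from 68 to 61 bases before the start, and that start equals the 5′ end of the gene in the deposited table. In GOT1 the match TTGCATCA, the same letters read on the other strand, lay from 198 to 191 bases before the start. The second ASNS window, 243 bases further downstream, held neither motif, nor did the windows of GLUL, GLUD1 and GOT2. A match of letters describes the sequence and says nothing of binding in these cells.

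The regulators known to act on these genes were listed by function, with earlier results of these data known, and 11 of the 12 were tested. By the edgeR test, with a threshold of 0.05 on the adjusted p-value, 2 rose (18.2%) and 4 fell (36.4%). Of all tested genes 30.0% rose and 31.4% fell by that rule, so moving both ways is not particular to the regulators. ATF4 stood at 192, 185 and 200 FPKM in NC and at 141, 140 and 140 FPKM in siGDF15, with a log2 fold change of -0.35 (SE 0.046, edgeR adjusted p = 2.6e-04). CEBPG, a partner of ATF4 on the amino acid response element, fell further. Its levels were 11.4, 11.96 and 11.7 FPKM in NC and 5.61, 5.68 and 5.22 FPKM in siGDF15, with a log2 fold change of -0.98 (SE 0.061, edgeR adjusted p = 4.12e-06). TRIB3, an ATF4 target that restrains it, and EIF2AK4, the kinase that senses uncharged tRNA, fell by 0.30 and 0.39 on the log2 scale. DDIT3, which encodes CHOP, and CEBPB rose by 0.48 and 0.29 on the log2 scale, so the regulators did not move in 1 direction. MYC, with a log2 fold change of -0.01 (SE 0.16, edgeR adjusted p = 0.97), HIF1A, ATF5 and EIF2AK3 did not pass the test. The MYC value rested on single NC libraries, being 0.22 (edgeR adjusted p = 0.0497) without NC replicate 3 and -0.18 without NC replicate 2.

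**Figure D1:**
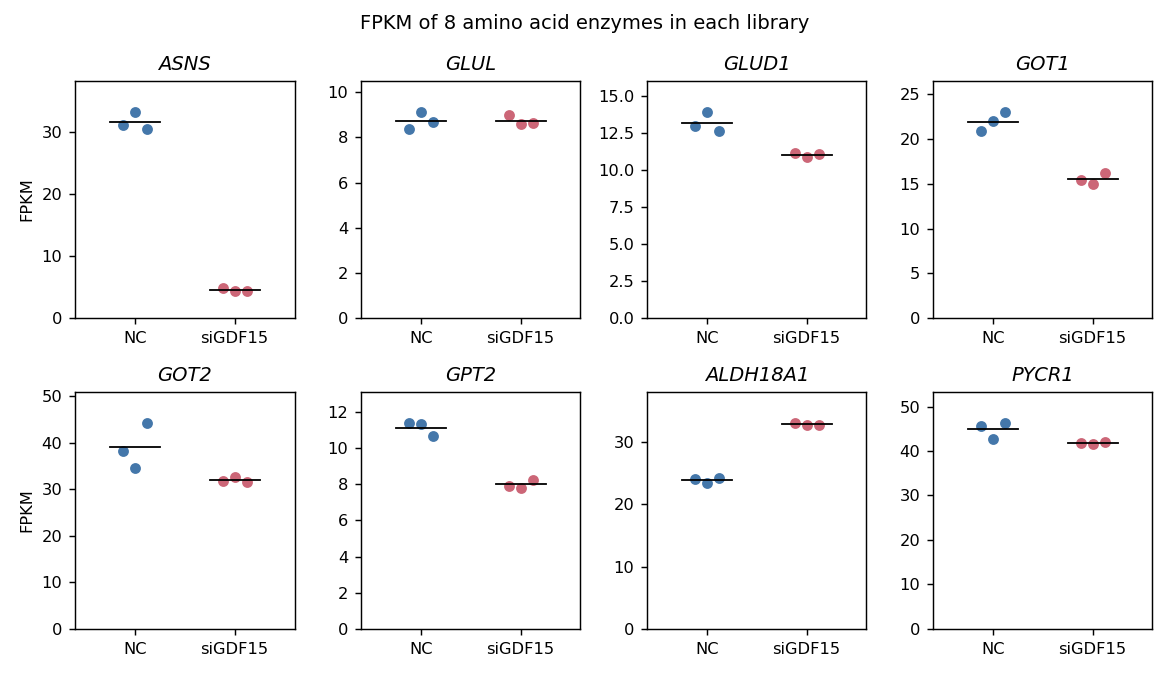
FPKM of the 8 genes in each library, with NC in blue and siGDF15 in red, points for replicates 1 to 3 from left to right and a line at the group mean. The 3 siGDF15 points of ASNS sit between 4.31 and 4.82 FPKM under NC points of 30.5 to 33.3 FPKM, ALDH18A1 is the only gene whose siGDF15 points all lie above the NC points, and the points of GLUL overlap.

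GLUL and GLUD1 lie on either side of glutamate. GLUL encodes glutamine synthetase, which adds ammonia to glutamate, and GLUD1 encodes the mitochondrial glutamate dehydrogenase, which releases it. GLUL (ENSG00000135821, minus strand of chromosome 1 from 182378098 to 182392206) was at 8.38, 9.12 and 8.66 FPKM in NC and at 8.99, 8.57 and 8.63 FPKM in siGDF15. The FPKM values of the groups overlapped, whereas on TMM-scaled counts every siGDF15 library lay above every NC library. The FPKM means were 8.72 ± 0.375 and 8.73 ± 0.224 FPKM (SD, n = 3). In edgeR GLUL had a log2 fold change of 0.11 (SE 0.046). After scaling the libraries to equal medians it was 0.16, without NC replicate 2 it was 0.14, and in limma on log2 of FPKM plus 1 it was 0.00. GLUD1 (ENSG00000148672, minus strand of chromosome 10 from 87050202 to 87094843) was at 13.0, 13.9 and 12.6 FPKM in NC and at 11.1, 10.9 and 11.1 FPKM in siGDF15. Every siGDF15 library of GLUD1 was below every NC library, and its log2 fold change was -0.15 (SE 0.046). Over the other settings it lay between -0.25 and -0.09, the latter after scaling to equal medians.

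GLUD1 shares sequence with other genes. GLUD2, an intronless copy on the X chromosome that encodes a second glutamate dehydrogenase, was between 0.404 and 0.524 FPKM in all 6 libraries, and the pseudogene GLUD1P3 was between 0.549 and 1.21 FPKM. Both were far below GLUD1 itself. SHLD2, a gene of DNA repair on the opposite strand, overlaps the 5′ end of GLUD1 over 683 bases. SHLD2 was at 11.3, 11.2 and 10.7 FPKM in NC and at 12.6, 12.4 and 12.5 FPKM in siGDF15, so it was higher where GLUD1 was lower. The library kit marks the strand, and whether the counting used it is not given in the sources used here.

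GOT1 and GOT2, the cytosolic and mitochondrial aspartate aminotransferases, exchange amino groups between glutamate and aspartate and carry the malate-aspartate shuttle. GOT1 (ENSG00000120053, minus strand of chromosome 10 from 99396870 to 99430624) was at 20.9, 22.0 and 23.0 FPKM in NC and at 15.4, 15.0 and 16.2 FPKM in siGDF15. All siGDF15 libraries lay below all NC libraries, and the log2 fold change of GOT1 was -0.39 (SE 0.061). GOT2 (ENSG00000125166, minus strand of chromosome 16 from 58707131 to 58734342) was at 38.3, 34.6 and 44.4 FPKM in NC and at 31.8, 32.7 and 31.7 FPKM in siGDF15. Here the NC libraries differed among themselves, with a coefficient of variation of 12.6%, against 4.94% for GOT1.

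The log2 fold change of GOT2 was -0.18 (SE 0.087). Its size depended on the NC libraries, being -0.08 without NC replicate 3 and -0.27 without NC replicate 2. With total counts it was -0.28, and in the limma fits -0.27 and -0.28. GOT2 was lowest in NC replicate 2 and highest in NC replicate 3. MYC (31.0, 24.5 and 41.9 FPKM in NC), ODC1 (49.7, 41.4 and 61.2 FPKM in NC) and CAD (22.9, 20.4 and 26.5 FPKM in NC) had the same order. ASS1 (11.35, 12.7 and 9.21 FPKM in NC) and HIF1A (80.8, 86.9 and 70.3 FPKM in NC) had the opposite order. These genes are examples, and the share of all genes with either order was not counted. The part of any difference between the NC libraries in the GOT2 values was not tested. The ratio of GOT1 to GOT2, which no scaling of a library can change, was 0.544, 0.636 and 0.519 in NC and 0.486, 0.460 and 0.512 in siGDF15. NC and siGDF15 did not overlap, with a narrow margin between NC replicate 3 and siGDF15 replicate 3.

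GPT2, the mitochondrial alanine aminotransferase, makes alanine from pyruvate with the amino group of glutamate. GPT2 (ENSG00000166123, plus strand of chromosome 16 from 46884362 to 46931289) was at 11.4, 11.3 and 10.65 FPKM in NC and at 7.92, 7.80 and 8.25 FPKM in siGDF15. The groups did not overlap and the log2 fold change of GPT2 was -0.37 (SE 0.049), close to that of GOT1. The cytosolic isozyme GPT was listed between 0.262 and 0.505 FPKM in all libraries and was not tested, so nearly all alanine aminotransferase RNA in this table came from GPT2.

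The proline branch held ALDH18A1, which was higher in siGDF15 in every setting tried, and PYCR1, whose direction depended on the scaling. ALDH18A1 encodes the enzyme that turns glutamate into the precursor of pyrroline-5-carboxylate, the first committed step of proline synthesis. ALDH18A1 (ENSG00000059573, minus strand of chromosome 10 from 95605941 to 95656711) was at 24.05, 23.5 and 24.2 FPKM in NC and at 33.1, 32.8 and 32.7 FPKM in siGDF15. All siGDF15 libraries were above all NC libraries, the spread within each group was small, and the log2 fold change was 0.56 (SE 0.042). Over all other settings it lay between 0.44 and 0.62.

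PYCR1 encodes a mitochondrial reductase that completes proline from pyrroline-5-carboxylate. PYCR1 (ENSG00000183010, minus strand of chromosome 17 from 81932384 to 81941079) was at 45.6, 42.7 and 46.4 FPKM in NC and at 41.8, 41.6 and 42.1 FPKM in siGDF15. These FPKM values did not overlap, whereas the TMM-scaled counts did, and the log2 fold change of PYCR1 was 0.00 (SE 0.048). Its sign depended on the scaling, from -0.10 with limma on log2 of FPKM or with total counts to 0.06 with libraries scaled to equal medians. MYADML2, which overlaps PYCR1 on the same strand, was at no more than 0.109 FPKM.

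PYCR3, the cytosolic reductase of the same family, rose from 8.83, 8.24 and 9.33 FPKM to 11.01, 11.4 and 11.98 FPKM, with a log2 fold change of 0.49 (SE 0.070, edgeR adjusted p = 4.1e-04). Within a library, the ratio of PYCR1 to PYCR3 went from 5.17, 5.18 and 4.97 in NC to 3.79, 3.64 and 3.52 in siGDF15. PYCR1 thus stayed the more abundant of this pair in every library, by a smaller margin in siGDF15. The ratio of ALDH18A1 to PYCR1, a pair set side by side after their values were seen, went from 0.527, 0.551 and 0.522 in NC to 0.793, 0.788 and 0.776 in siGDF15. RNA of the first enzyme of the branch thus gained on that of PYCR1 in each siGDF15 library.

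Enzymes that run against the 8 were listed by function, also with earlier results of these data known. PRODH, the first enzyme of proline breakdown, was at no more than 0.0561 FPKM in any library and could not be tested at that level. ALDH4A1, the second enzyme of proline breakdown, rose by a log2 fold change of 0.595 (SE 0.075, edgeR adjusted p = 2.0e-04). OAT, which links ornithine to pyrroline-5-carboxylate, rose from 25.55, 28.0 and 24.6 FPKM to 32.1, 30.6 and 33.6 FPKM, a log2 fold change of 0.41 (SE 0.058, edgeR adjusted p = 4.0e-04). On the asparagine side, ASRGL1, an enzyme with asparaginase activity, fell from 2.67, 2.59 and 2.055 FPKM to 0.918, 1.02 and 0.944 FPKM, a log2 fold change of -1.23 (SE 0.13, edgeR adjusted p = 8.1e-05). ASPG, another asparaginase gene, was listed at 0 in 5 of 6 libraries. RNA of both asparagine synthetase and the expressed asparaginase was thus lower in siGDF15.

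Across the 5 lists of other pathway genes, also written with earlier results of these data known, 58 genes were listed in the table and 45 were tested. Of these 15 (33.3%) rose and 19 (42.2%) fell with siGDF15 by the same threshold, where the shares over all tested genes were 30.0% and 31.4%. Of the 8 enzymes, 1 was higher and 4 lower by the same rule, a count from which nothing is read because the genes were chosen on this contrast. The medians of the log2 fold change were -0.16 for the 8 enzymes, -0.16 for the 45 pathway genes and 0.00 for all tested genes. For the 41 tested genes that the deposited annotation puts in 2 KEGG pathways, a list added after seeing the data, it was -0.0015. A lower median was thus not shared by that list. With a log2 fold change of at least 1 required as well, none of the 8 enzymes was higher, where the background is 3.03%, and ASNS alone was lower, where it is 4.78%. By that rule 1 of the 45 pathway genes was higher and 4 were lower. On TMM-scaled counts, all siGDF15 libraries lay above all NC libraries for 2 of the 8 enzymes and 15 of the 45 pathway genes, with 33.8% among all tested genes. They lay below for 4 of the 8 and 20 of the 45, with 34.1% among all tested genes.

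The list of amidotransferases, enzymes that like ASNS spend the amide group of glutamine, held 12 tested genes, of which 7 were lower and 2 higher. These were 58.3% and 16.7%, where the shares over all tested genes were 31.4% and 30.0%. The falls included CAD and CTPS2 of pyrimidine synthesis (-0.74 and -0.75 on the log2 scale) and GMPS and PFAS of purine synthesis (-0.66 and -0.61 on the log2 scale). GFPT2, which directs glutamine to hexosamines, had a log2 fold change of -1.10 (SE 0.10, edgeR adjusted p = 3.6e-05), while its isozyme GFPT1 had one of 0.385 (SE 0.050, edgeR adjusted p = 2.5e-04). The 2 isozymes thus moved apart. CAD, GMPS, PFAS and GFPT1 were named here after their values were seen.

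Among the enzymes that make or use glutamate, 4 of 9 tested genes rose (44.4%) and 3 fell (33.3%). Over all tested genes these shares were 30.0% and 31.4%. PSAT1, a transaminase of serine synthesis that takes its amino group from glutamate, fell from 275, 271.5 and 270.2 FPKM in NC to 48.8, 45.8 and 46.9 FPKM in siGDF15, with a log2 fold change of -2.425 (SE 0.043, edgeR adjusted p = 6.8e-08). It had the largest fall of the 5 lists. AADAT, a mitochondrial aminotransferase of lysine and kynurenine metabolism, fell by 1.135 and BCAT1, the cytosolic branched-chain transaminase, by 0.75 on the log2 scale. KYAT3 rose by 0.85 and the mitochondrial branched-chain transaminase BCAT2 by 0.30 on the log2 scale. Lower transaminase RNA was therefore not shared by the whole class. BCAT1 and BCAT2 were named here after their values were seen.

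Of 8 tested genes on the list for asparagine and aspartate, 3 rose (37.5%) and 2 fell (25.0%). All tested genes had shares of 30.0% and 31.4%. ASS1, which joins aspartate to citrulline on the way to arginine, rose from 11.35, 12.7 and 9.21 FPKM in NC to 24.1, 24.9 and 24.3 FPKM in siGDF15. Its log2 fold change of 1.245 (SE 0.10, edgeR adjusted p = 1.9e-05) was the largest rise of the 5 lists. ADSS2, which joins aspartate to IMP and was named here after its value was seen, fell by 0.63 on the log2 scale. In the proline and ornithine list 4 of 10 rose (40.0%) and 4 fell (40.0%). Among those that fell was ODC1, the first enzyme of polyamine synthesis, with a log2 fold change of -0.84 (SE 0.12, edgeR adjusted p = 5.2e-04).

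Around GOT1 and GOT2, the shuttle genes also moved in both directions, with 2 of 6 tested genes higher (33.3%) and 3 lower (50.0%). Among all tested genes 30.0% were higher and 31.4% lower. The cytosolic malate dehydrogenase gene MDH1 fell by 0.35 on the log2 scale and the mitochondrial MDH2 rose by 0.29 on the log2 scale. Of the aspartate-glutamate carriers, SLC25A12 rose by 0.35 and SLC25A13 fell by 0.30 on the log2 scale. GOT1 and MDH1, the cytosolic pair, were both lower in siGDF15. The mitochondrial GOT2 had a negative log2 fold change too (-0.18, SE 0.087), so lower RNA was not particular to the cytosolic pair. The shuttle genes were named here after their values were seen.

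**Figure D2:**
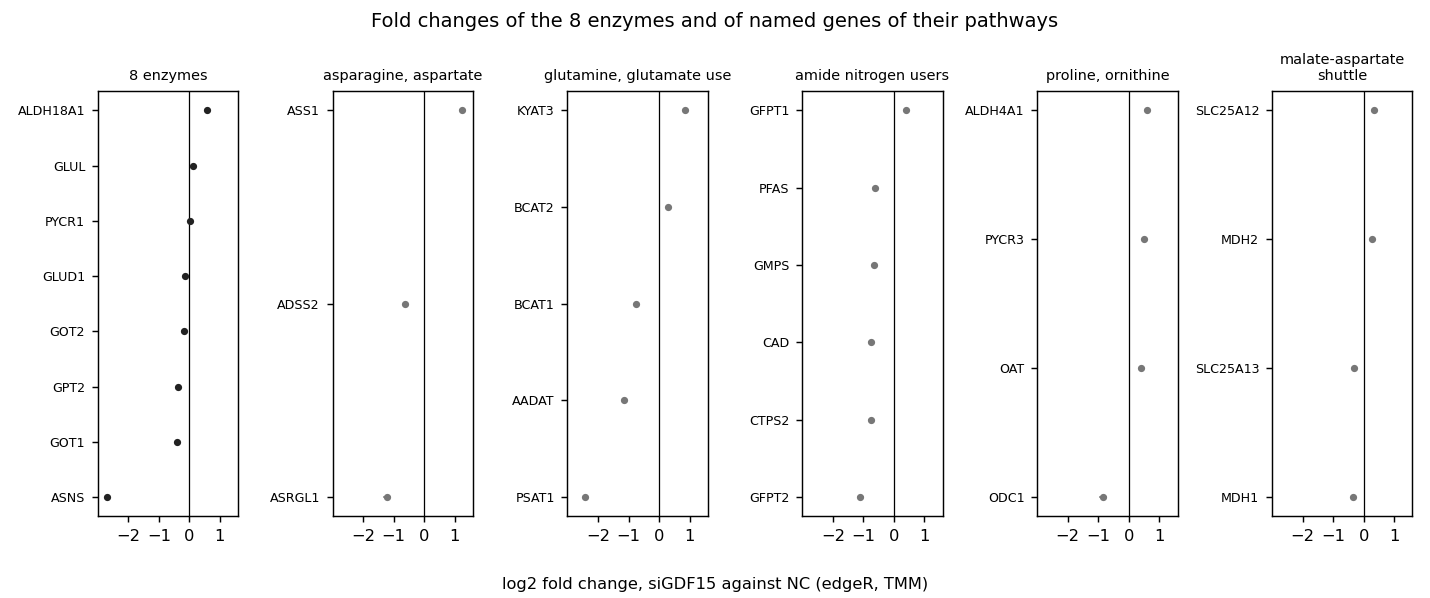
Log2 fold changes of siGDF15 against NC from edgeR for the 8 enzymes and for the genes of the 5 lists that the text names, with bars of 1 standard error that are often hidden by the points. ASNS at -2.70 and PSAT1 at -2.425 lie far left of all others, ASS1 at 1.245 lies farthest right, and each list has genes on both sides of 0.

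The order of the 8 levels changed between the groups. In NC the order of mean FPKM was PYCR1 (44.9), GOT2 (39.1), ASNS (31.6), ALDH18A1 (23.9), GOT1 (22.0), GLUD1 (13.2), GPT2 (11.1) and GLUL (8.72). Of the neighbours in that order only PYCR1 and GOT2 overlapped between libraries. In siGDF15 the order was PYCR1 (41.8), ALDH18A1 (32.9), GOT2 (32.1), GOT1 (15.6), GLUD1 (11.05), GLUL (8.73), GPT2 (7.99) and ASNS (4.50), and no neighbours overlapped. ALDH18A1 and GOT2 were nonetheless close there, with the lowest library of ALDH18A1 at 32.7 FPKM beside the highest of GOT2 at 32.7 FPKM. ASNS made up 16.3% of the summed FPKM of the 8 genes in NC and 2.91% in siGDF15. The sum itself was between 190 and 200 FPKM in NC and between 154 and 155 FPKM in siGDF15.

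For each enzyme the tested genes outside the list with the most similar profile were sought, by the root mean square distance between log2 TMM-scaled counts over the 6 libraries, each centred on its own mean. Over 3 libraries per group this distance mostly follows the fold change. ASNS, ranked 7 from the low end, was therefore bound to have few near neighbours, and these to be other large falls. They add nothing to its fold change. The closest was PSAT1 (distance 0.147 log2 units), followed by POLQ, a DNA polymerase of end joining (0.271), and SLC1A4, a carrier of neutral amino acids (0.285). For ALDH18A1 the closest were IDH3G, a subunit of the isocitrate dehydrogenase of the citric acid cycle (0.020), SCFD1 (0.020) and MGLL (0.021). The nearest genes of the other 6 enzymes lay within 0.012 to 0.029 log2 units. All profiles share the same 6 libraries and thus their depth and scaling.

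**Figure D3:**
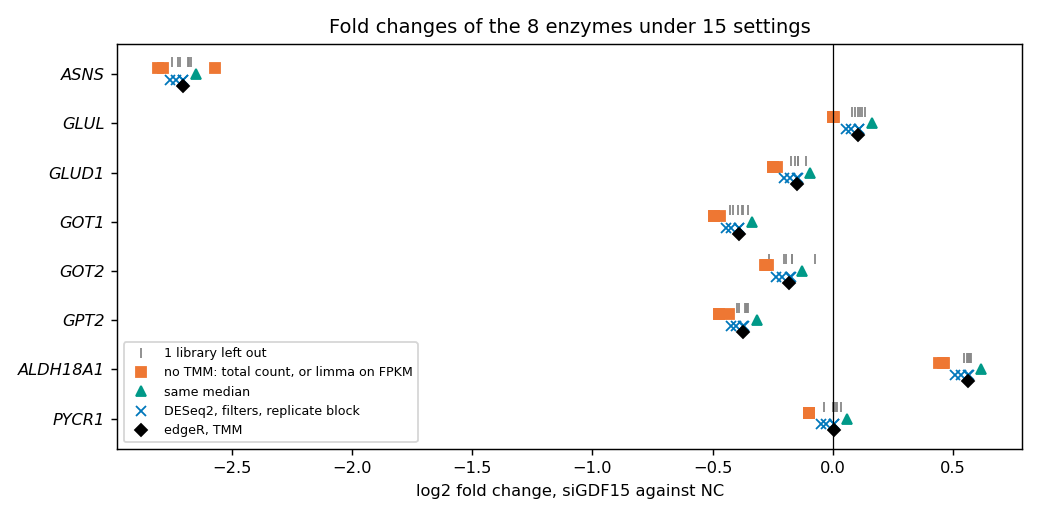
Log2 fold change of each of the 8 enzymes in edgeR with TMM (black) and under the 14 other settings, in which 1 library was left out, the scaling, the filter or the tool was changed, or a replicate block was added. ASNS, GOT1, GPT2, GOT2 and GLUD1 stay left of 0 and ALDH18A1 right of it in all of them, while PYCR1 falls on both sides. GLUL is at 0.00 with total counts and in limma and right of 0 otherwise.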

How the data were processed

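Poly(A) RNA of 3 siGDF15 and 3 NC libraries was sequenced as read pairs. The submitters' processing notes name fastp, HISAT2, StringTie, edgeR and GRCh38, and the versions and annotation release are not given in the sources used here. The authors deposited FPKM values, made with StringTie and scaled by transcript length and mapped fragments. The deposited expected counts, also per library, are whole numbers that are not normalized. How they were made is not stated, and they were treated as estimates from coverage because they follow FPKM times a gene length and because 4 was the most frequent value from 1 to 20.

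The test was limited to the genes whose FPKM averaged 1 or more over the 6 libraries and used edgeR 4.0.16 (quasi-likelihood, TMM, two-sided, Benjamini-Hochberg adjustment over 11867 genes) and called at an adjusted p-value under 0.05. The SE is the absolute fold change divided by the root of F. DESeq2 1.42.0, limma 3.58.1 on log2 of FPKM plus 1 or 0.1, other scalings and filters, a replicate block and each library left out were tried as alternatives. The code was checked on simulated counts. R 4.3.3 and Python 3.11.15 were used. The 8 enzymes and all lists were chosen with earlier results of these data known. Named genes were the 8 enzymes, their isozymes and opposing enzymes, the 10 called genes of the pathway lists with the largest changes, the regulators, overlapping or copied genes and the 3 nearest profiles of each enzyme. CAD, GMPS, PFAS, GFPT1, BCAT1, BCAT2, ADSS2 and the shuttle genes were added after their values were seen. Values of some of these genes are not reported here. Precision is set by 3 libraries per group.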

Additional observations from a re-analysis of the deposited data

How the results depend on the processing

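The direction of ASNS, GOT1, GPT2, GOT2, GLUD1 and ALDH18A1 held in all 14 alternatives, and that of PYCR1 did not. GLUL was 0.00 (SE 0.047) with total counts and 0.00 in both limma fits, so its rise depended on the scaling. The number of enzymes called higher went from 1 to 2, with GLUL added, when each library was scaled to the same median. The number called lower then went from 4 to 3, with GLUD1 lost. With 1 library left out, the higher calls lay between 1 and 2, the 2 arising without NC replicate 2. The lower calls lay between 3 and 5 there. In the 14 alternatives GLUD1 lost its call in 5 and GOT2 gained one in 4. These calls of the 8 enzymes only show how the settings act. Nothing is read from them, because the genes were chosen on this contrast. The median of the 8 enzymes was -0.27 with total counts, -0.11 with the same median, -0.20 with a mean FPKM of at least 0.1, -0.22 with no filter, -0.25 with limma on log2 of FPKM plus 1, -0.26 with plus 0.1, and between -0.19 and -0.12 with 1 library left out. The median of the pathway lists was -0.26, -0.10, -0.12 and -0.12 in the first 4 of these settings, -0.24 with limma and plus 0.1, and between -0.17 and -0.12 with 1 library left out. Under these changes of scaling the median of all tested genes also went from 0.00 to -0.10 with total counts and to 0.06 with the same median, whereas with no filter it was 0.07. The share of higher genes among all calls was 48.9%, compared with 36.6% with total counts and 55.8% with the same median. With a log2 fold change of at least 1 required, 927 in place of 7286 genes were called (360 higher, 567 lower), with 1 of the 8 enzymes (0 higher, 1 lower) and 5 of the pathway genes (1 higher, 4 lower). With 1 library left out the log2 fold change of MYC ranged from -0.18 to 0.22, the latter without NC replicate 3 (edgeR adjusted p = 0.0497), where its direction reversed. Of the 41 tested genes that the deposited annotation puts in 2 KEGG pathways, a list added after seeing the data, 16 were higher (39.0%) and 13 lower (31.7%). The shares over all tested genes were 30.0% and 31.4%. The labels do not say whether NC and siGDF15 libraries of the same replicate number were made together. Deviations of the same number correlated at 0.028, -0.075 and 0.046. These values show no large shared effect and cannot settle whether the libraries were paired. With the replicate block the number of enzymes called stayed at 5.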
